A study of Mus musculus with 4 samples.

Results

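The genes described here are Dnmt1, Dnmt3a, Dnmt3b, Dnmt3l, Uhrf1, Tet1, Tet2 and Tet3, which write, copy and remove methyl groups on cytosine. They were chosen by name, and all 8 were found among the 21690 features of the deposited tables. Cytosine methylation at CpG sites is set by the de novo methyltransferases Dnmt3a and Dnmt3b, helped by the catalytically inactive cofactor Dnmt3l. Dnmt1 copies the marks onto new DNA after replication, and Uhrf1 brings it to half-methylated sites. The Tet enzymes oxidise 5-methylcytosine, which starts its removal. In mouse embryonic stem cells Dnmt3b and Dnmt3l are abundant, and both are known to decline as neural lineages mature, while Dnmt3a persists and Tet3 becomes a main Tet enzyme of neural cells.

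RNA was sequenced from neural precursors made from the A2lox mouse embryonic stem cell line, here in a derivative in which doxycycline induces knockdown of Geminin, a small protein that restrains replication licensing. Cells were kept in N2B27, a defined medium for neural differentiation, until day 5, on gelatin, after stem cell culture on a feeder layer of fibroblasts. The 3 Geminin knockdown libraries came from independent experiments with 500 ng doxycycline from day 3 to day 5, and the 1 control library came from cells of the same line without doxycycline. The line is 1 clone, all libraries were run on 1 lane, and the same control served all 3 comparisons. All cells carried the knockdown construct, and no culture with doxycycline but no knockdown was used here, so the drug and the knockdown cannot be told apart. With 1 control library for 3 independent experiments, a difference between experiments or cultures cannot be told apart from the treatment either. By its title the control is number 1, as is knockdown library 1. Whether these came from the same experiment is not stated in the titles.

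Gmnn, which encodes Geminin, had 24.0%, 58.4% and 24.7% of the control FPKM (fragments per kilobase of exon, scaled to the mapped fragments of the library) in knockdown libraries 1, 2 and 3. Depth was 1.00, 1.15 and 0.971 times that of the control, as read from whole-read steps in features too low to test, and absolute depth is unknown. The neural precursor genes Sox1 and Nes were well expressed in every library, at 42.5 to 64.0 and at 100.5 to 125 FPKM. The pluripotency gene Pou5f1 was present as well, at 22.4, 45.2 and 69.5 FPKM in knockdown libraries 1, 2 and 3 and at 16.9 FPKM in the control. Knockdown libraries 2 and 3 departed from the control across many genes, with 5.24% and 4.62% of testable features marked as significant in the authors' deposited tables, against 2.43% for knockdown library 1. For library 1, 0.909% were marked higher and 1.52% lower, and none of the 8 genes was among them. For the genes among these 8 with a test in every library, the test error was smallest in library 1. The marked shares are thus not on equal terms.

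The promoters of the 3 genes that the authors marked in any library are shown first, because CpG sites are the substrate of the enzymes themselves. All 8 genes matched the RefSeq promoter table (GRCm38.p6), with 15 annotated starts between them. The 250 bases before each start are printed 5′ to 3′ on the gene's strand, with every CpG in capitals. Dnmt3b (chr2:153649199-153649448, plus strand) and Tet2 (chr3:133544391-133544640, minus strand) have 1 annotated start each. The bases that follow the Dnmt3b start were not found in its transcripts in GENCODE, another gene annotation, so this start is less certain. The same holds for the most upstream Dnmt3a start. The most upstream of 3 starts is shown for Dnmt3l (chr10:78042037-78042286, plus strand).
Dnmt3b: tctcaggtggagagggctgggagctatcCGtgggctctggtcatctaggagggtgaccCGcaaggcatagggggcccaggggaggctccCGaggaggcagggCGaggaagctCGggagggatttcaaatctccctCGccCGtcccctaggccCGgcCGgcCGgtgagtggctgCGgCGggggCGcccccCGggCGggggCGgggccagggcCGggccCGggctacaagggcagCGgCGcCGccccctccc
Tet2: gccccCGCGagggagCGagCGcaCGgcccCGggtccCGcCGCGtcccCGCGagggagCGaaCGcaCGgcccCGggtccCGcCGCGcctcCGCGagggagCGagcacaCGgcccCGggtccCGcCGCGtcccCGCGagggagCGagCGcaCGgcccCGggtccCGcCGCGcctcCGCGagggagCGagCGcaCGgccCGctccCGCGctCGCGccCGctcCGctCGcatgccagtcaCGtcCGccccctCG
Dnmt3l: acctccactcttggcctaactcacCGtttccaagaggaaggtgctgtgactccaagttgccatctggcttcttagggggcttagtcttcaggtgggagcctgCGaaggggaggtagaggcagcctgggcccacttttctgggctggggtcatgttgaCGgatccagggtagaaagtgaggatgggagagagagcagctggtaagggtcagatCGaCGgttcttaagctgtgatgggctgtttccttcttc

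The Tet2 window held 51 CpG sites, where 0.0487% of the 32851 promoter windows in the table held more, and the Dnmt3b window held 21. The Dnmt3l windows held 5, 4 and 3 sites at the 3 starts, against a median of 6 over all windows, with quartiles of 2 and 16. The remaining genes lay between 2 sites, at the most upstream Dnmt1 start, and 40 sites, at a Dnmt3a start. Dnmt3b, which fell, and Tet2, which rose, both have more CpG sites in this window than the median promoter. So do Dnmt3a, Uhrf1, Tet1 and Tet3, which were not called, with 10 to 40 sites at their starts. This trait thus does not set the called genes apart, and methylation itself was not measured here.

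The maintenance genes Dnmt1 and Uhrf1 have, at 1 start each, the letters of a motif of E2F factors, which drive genes of S phase. The CCAAT box, GC box, TATA box and octamer were also searched and are not described here. The letters TTTGGCGC or TTTCGCGC, on either strand, were found in 0.6545% of all windows. Among the 15 windows of these genes they were found at 1 start each of Dnmt1 (chr9:20952819-20952858, minus strand) and Uhrf1 (chr17:56304112-56304151, plus strand). The other starts of both genes had no match. These windows held 26 and 30 CpG sites, against a median of 6 over all windows. The letters themselves contain CpG, so the share over all windows is not a like background. The 2 stretches are printed with the matching letters in capitals, and a match describes the letters only.
Dnmt1: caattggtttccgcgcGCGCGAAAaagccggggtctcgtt
Uhrf1: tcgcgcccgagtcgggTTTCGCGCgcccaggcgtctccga

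The maintenance genes were the most abundant of the 8 and neither was called. Uhrf1, on chromosome 17 from 56442759 to 56462909 (mm9, as for all gene positions here), had 129, 145 and 153 FPKM in knockdown libraries 1, 2 and 3, against 141 in the control. The knockdown values lay on both sides of the control. Dnmt1, on chromosome 9 from 20711652 to 20757317, had 96.0, 106 and 104 FPKM in the knockdown libraries, against 106 in the control. All 3 knockdown values were below the control. Relative to the control, Dnmt1 averaged 96.2% ± 4.95 and Uhrf1 101% ± 8.70 (SD, n = 3 each). In the authors' deposited tables neither was marked in any library.

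The test statistic of Cuffdiff, the authors' tool, gives an approximate 95% interval for each ratio, which covers the error of 1 library against 1 library and not the spread between cultures. For Dnmt1 it ran from 80.1% to 102% of the control in knockdown library 1, from 72.6% to 137% in library 2 and from 72.7% to 132% in library 3. For Uhrf1 it ran from 85.6% to 98.1% in library 1, from 87.2% to 122.8% in library 2 and from 93.1% to 127% in library 3. The library 1 interval of Uhrf1 lay below the control, without a mark in the authors' deposited table (p = 0.0126, q = 0.202, Cuffdiff). Standard errors of the natural log ratio were smaller in library 1, at 0.063 for Dnmt1 and 0.035 for Uhrf1. In libraries 2 and 3 they were 0.163 and 0.153 for Dnmt1 and 0.087 and 0.079 for Uhrf1. The intervals are thus not on equal terms between libraries, and the reason was not tested. The ratio of Uhrf1 to Dnmt1 FPKM was 1.35, 1.37 and 1.47 in the knockdown libraries, against 1.33 in the control.

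**Figure D1:**
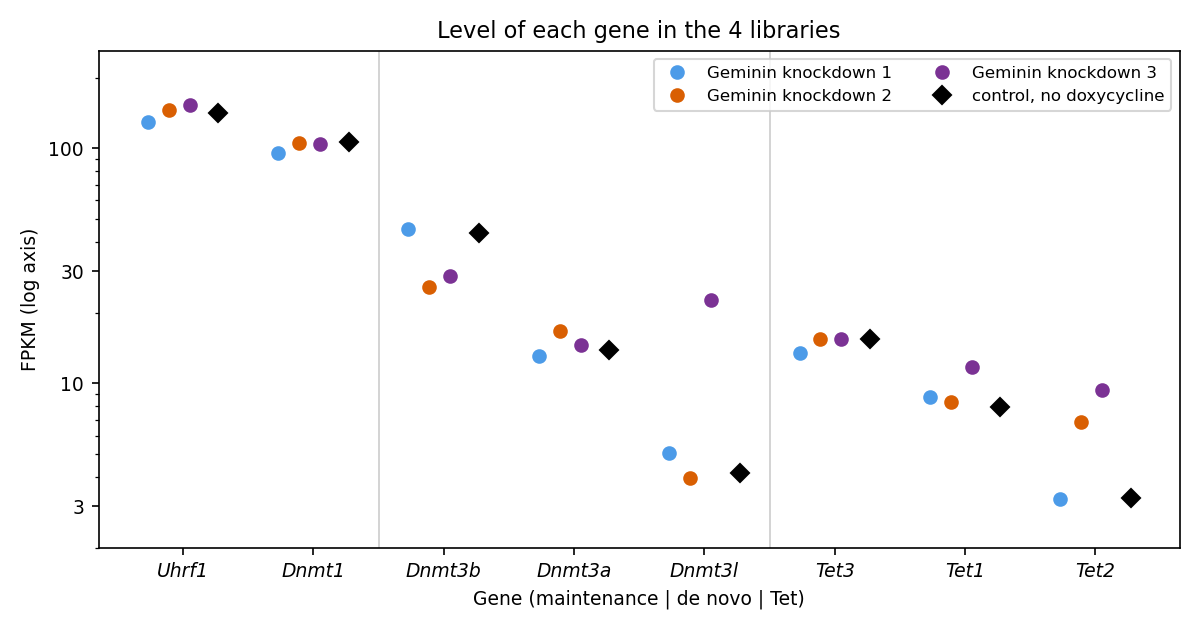
FPKM of the 8 genes on a log axis, in knockdown libraries 1, 2 and 3 (circles) and in the control (diamond), 1 point per library. Uhrf1 and Dnmt1 lie between 96.0 and 153 FPKM in every library, whereas Dnmt3b is lower in libraries 2 and 3, Tet2 is higher in both, and Dnmt3l stands out in library 3 at 22.5 FPKM.

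Among the de novo genes Dnmt3b fell. Dnmt3b, on chromosome 2 from 153475189 to 153513466, had 45.4, 25.8 and 28.8 FPKM in knockdown libraries 1, 2 and 3, against 43.6 to 43.7 in the control. Library 1 was at the level of the control, and libraries 2 and 3 were both well below it. The level was 59.1% of the control in library 2, with an approximate 95% interval of 47.0% to 74.3%, and 65.9% in library 3, with an interval of 53.3% to 81.5%. The authors' deposited tables marked both falls as significant (q = 0.00034 in library 2 and q = 0.00489 in library 3, Cuffdiff), where 2.02% and 1.28% of testable features were marked lower in these tables. Library 1 was at 104% of the control with no mark.

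The series' design calls a transcript changed when at least 2 of the 3 tables mark it, here also required to be in 1 direction. By this rule Dnmt3b was the 1 member that fell, where 0.905% of all callable features fell. Fitted over all features with limma on log2(FPKM + 1), which treats the knockdown libraries as replicates, Dnmt3b had a log2 change of -0.42 (SE 0.35), which did not pass the threshold (adjusted p = 0.993). Without library 1 the log2 change was -0.66 (adjusted p = 0.375), and the call of Dnmt3b by the authors' marks held. Leaving out either library 2 or library 3 ended it, since a mark is then needed in both remaining tables. Both outcomes were fixed in advance, because the marks of Dnmt3b lie in libraries 2 and 3 alone.

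Dnmt3a, on chromosome 12 from 3806979 to 3914443, had 13.04, 16.8 and 14.6 FPKM in knockdown libraries 1, 2 and 3, against 13.8 in the control. The knockdown values lay on both sides of the control and no library was marked. In library 2 the level was 121% of the control, with an approximate 95% interval of 91.4% to 161%. In library 3 it was 106%, with an interval of 81.1% to 137%.

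Dnmt3l, on chromosome 10 from 77492775 to 77526360, was high in a single library. It had 5.07, 3.97 and 22.5 FPKM in knockdown libraries 1, 2 and 3, against 4.17 to 4.18 in the control. Library 3 stood apart from the other 3 libraries, among which the values differed little. Its level there was 5.39 times the control, with an approximate 95% interval of 283% to 1024% of the control, and the authors' deposited tables marked it (q = 2.42e-05), where 3.33% of testable features were marked higher in that table. A single mark does not meet the study's rule, and the authors' deposited table gives Dnmt3l in library 1 a low-data status with no test. The limma log2 change was 0.79 (SE 0.98, adjusted p = 0.993), and 0.087 without library 3. The Dnmt3l feature overlaps Aire, a neighbouring gene listed at 0, 0.0732 and 0.554 FPKM in the knockdown libraries and at 0.0026 in the control.

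These differences changed the makeup of the de novo group, compared within each library as FPKM, which is scaled to gene length. Dnmt3b made up 71.5%, 55.4% and 43.6% of the summed FPKM of Dnmt3a, Dnmt3b and Dnmt3l in knockdown libraries 1, 2 and 3, against 70.8% in the control. Dnmt3l made up 7.98%, 8.54% and 34.2% in the knockdown libraries, against 6.77% in the control. Dnmt3a made up 20.5%, 36.0% and 22.2%, against 22.4%. Libraries 2 and 3 thus had a lower share of Dnmt3b in common, while the rest was mainly Dnmt3a in library 2 and largely Dnmt3l in library 3.

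Dnmt3b exceeded Dnmt3a 3.48, 1.54 and 1.97 times in knockdown libraries 1, 2 and 3, against 3.15 times in the control. The summed FPKM of the 3 genes was 63.5, 46.5 and 65.9 in the knockdown libraries, against 61.7 in the control. The sum of library 3 was close to that of the control although its parts were not. These shares are given as a description, with no test. With 3 libraries and 1 control the smallest exact permutation p is 0.25 (one-sided) or 0.5 (two-sided).

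**Figure D2:**
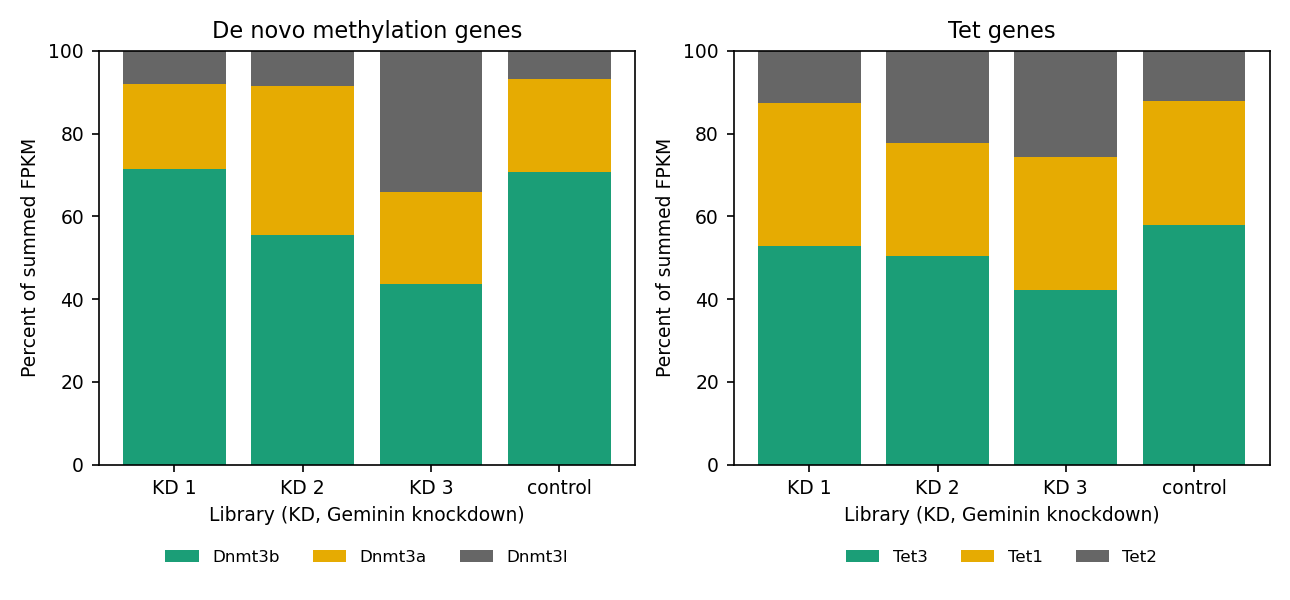
Share of each gene in the summed FPKM of the de novo group (left) and of the Tet group (right), in percent, 1 bar per library. Dnmt3b covers 70.8% of the de novo group in the control and 55.4% and 43.6% in knockdown libraries 2 and 3, and the Tet2 share is 22.3% and 25.6% in these libraries.

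Among the Tet genes Tet2 rose. Tet2, on chromosome 3 from 133126640 to 133207354, had 3.23, 6.85 and 9.35 FPKM in knockdown libraries 1, 2 and 3, against 3.24 in the control. Library 1 matched the control, and libraries 2 and 3 were both above it. The level was 2.11 times the control in library 2, with an approximate 95% interval of 137% to 327% of the control, and 2.88 times in library 3, with an interval of 195% to 427%. The authors' deposited tables marked both (q = 0.0196 in library 2 and q = 1.07e-05 in library 3, Cuffdiff), where 3.23% and 3.33% of testable features were marked higher.

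By the study's rule Tet2 was the 1 member that rose, where 1.98% of all callable features rose. The limma log2 change was 0.72 (SE 0.56, adjusted p = 0.993). Without library 1 the log2 change was 1.09, which did not pass the threshold. The authors' marks of Tet2 lie in libraries 2 and 3 alone. Its call by the rule therefore had to stay without library 1 and to end without library 2 or library 3.

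Tet1, on chromosome 10 from 62267318 to 62342762, had 8.80, 8.34 and 11.8 FPKM in knockdown libraries 1, 2 and 3, against 7.97 in the control. All 3 knockdown values were above the control, and library 3 was the highest at 147% of it, with an approximate 95% interval of 111% to 196%. In the authors' deposited table that difference was not marked (p = 0.00751, q = 0.118). Tet1 was the 1 member above the control in every knockdown library and Dnmt1 the 1 member below it, where 22.9% of 12243 tested features were above and 22.6% below, so neither position sets these genes apart.

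Tet3, on chromosome 6 from 83312369 to 83391672, had 13.5, 15.5 and 15.4 FPKM in knockdown libraries 1, 2 and 3, against 15.5 in the control. Libraries 2 and 3 were at 100.1% and 99.6% of the control, with approximate 95% intervals of 73.9% to 136% and 75.7% to 131%. Library 1 was the lowest at 87.4%, with an interval of 76.8% to 99.4% that lay below the control. The authors' deposited table did not mark it (p = 0.0396, q = 0.349, Cuffdiff). The standard error of the natural log ratio was 0.066 in library 1, against 0.155 and 0.140 in libraries 2 and 3.

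Tet3 was the most abundant Tet gene in every library, Tet1 came next and Tet2 last. The Tet2 share of the summed Tet FPKM was 12.7%, 22.3% and 25.6% in knockdown libraries 1, 2 and 3, against 12.2% in the control. The Tet3 share was 52.9%, 50.5% and 42.2% in the knockdown libraries, against 58.0%, and the Tet1 share was 34.4%, 27.2% and 32.2%, against 29.9%. Tet3 exceeded Tet2 4.18, 2.26 and 1.65 times in the knockdown libraries, against 4.77 times in the control. The summed FPKM of the Tet genes was 25.6, 30.7 and 36.5 in the knockdown libraries, against 26.7 in the control.

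In order of mean FPKM over the knockdown libraries the genes ran Uhrf1, Dnmt1, Dnmt3b, Tet3, Dnmt3a, Dnmt3l, Tet1 and Tet2. In the control the order was Uhrf1, Dnmt1, Dnmt3b, Tet3, Dnmt3a, Tet1, Dnmt3l and Tet2. Tet3 and Dnmt3a overlapped, with 14.8 ± 1.11 and 14.8 ± 1.87 FPKM (SD, n = 3 each) in the knockdown libraries, and Tet1 overlapped with Tet2. Dnmt3l, which ran from 3.97 to 22.5 FPKM, overlapped with all 4 of them. Uhrf1, Dnmt1 and Dnmt3b did not overlap with each other or with any other of the 8 genes.

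**Figure D3:**
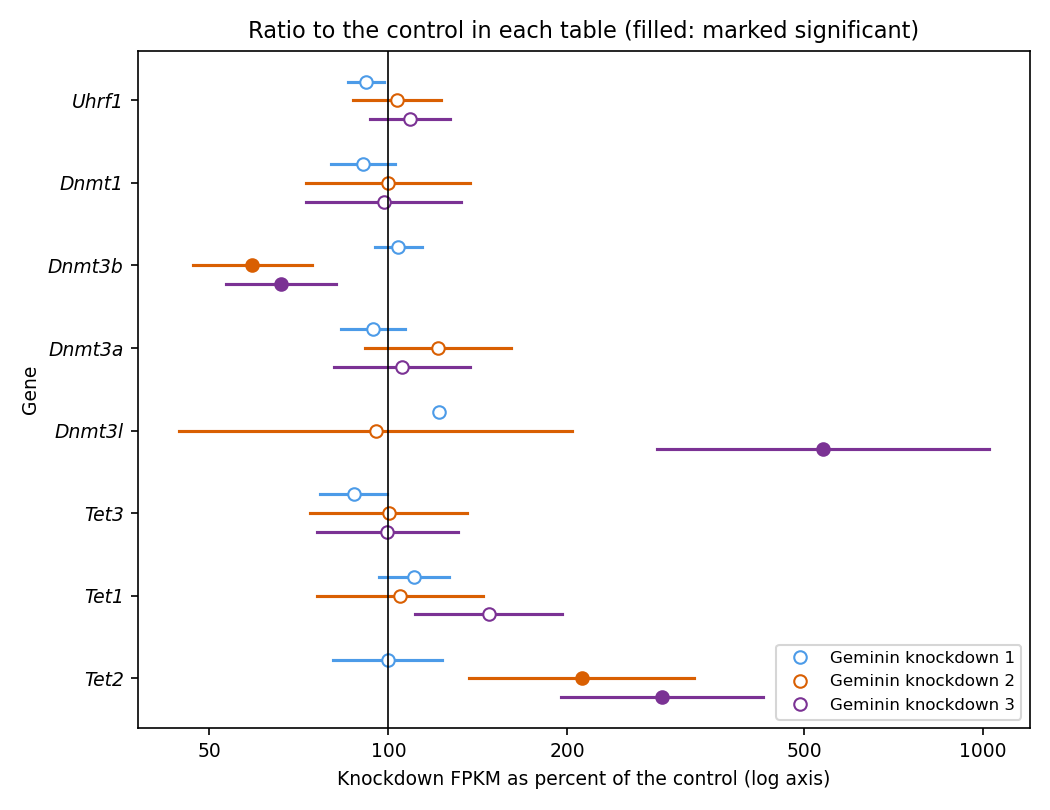
Knockdown FPKM as percent of the control within each table, on a log axis, with approximate 95% intervals from the authors' test statistics as lines. Filled points were marked significant by the authors: Dnmt3b in knockdown libraries 2 and 3 at 59.1% and 65.9%, Tet2 in the same libraries at 211% and 288%, and Dnmt3l in library 3 at 539%, while Dnmt3l in library 1 was not tested and has no interval.

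Over the 8 genes the limma fit called none, where 0.155% of the 12243 tested features were called in either direction. All 8 passed its filter of a mean of at least 1 FPKM, and the lowest unadjusted p among them was 0.259, for Tet2. The fit has 2 residual degrees of freedom and takes its spread from the knockdown libraries, which include the split between library 1 and the other two. Among all tested features the Dnmt3b ratio was lower than all but 4.30% in library 2 and 4.79% in library 3, and the Tet2 ratio was higher than all but 4.39% and 2.48%. The Dnmt3l ratio in library 3 was higher than all but 0.809%.

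The patterns most like those of Dnmt3b and Tet2 were taken by the distance between log2(FPKM + 1) ratios over the 3 knockdown libraries, among 9559 features of at least 5 FPKM on average. For Dnmt3b the nearest were Slc16a13, Gsto1, Efna5, Fgf13 and Tfrc, at distances of 0.069 to 0.10, and 44 features lay within 0.25. The nearest, Slc16a13, had 7.29, 4.00 and 4.41 FPKM in the knockdown libraries, against 7.32 in the control. Tfrc, the transferrin receptor, at rank 5, had 38.1, 21.7 and 22.1 FPKM, against 36.0. For Tet2 the nearest were Trib3, Dact3, Klf4, Serpine2 and Gm12166, at 0.16 to 0.19, and 17 features lay within 0.25. The nearest, Trib3, had 3.06, 7.55 and 10.4 FPKM in the knockdown libraries, against 3.48 in the control. Klf4, a pluripotency factor at rank 3, had 5.27, 9.05 and 14.1 FPKM, against 5.02. The 3 ratios of each feature share 1 control library.

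Counts of called genes in the lists around these enzymes stand beside 1.98% of callable features that rose and 0.905% that fell. None of 11 measured genes in the list of methyl-CpG readers and their relatives, which includes Uhrf2, was called by the study's rule or marked in any table. Mbd3, a subunit of the NuRD chromatin complex, had 74.3 ± 5.80 FPKM (SD, n = 3) in the knockdown libraries, against 90.2 in the control, and Uhrf2 had 47.5 ± 2.50, against 46.3. None of 18 genes of cytosine demethylation and repair was called, and 16 of them could be. The most abundant were Parp1, a sensor of DNA breaks, at 185 ± 22.4 FPKM, against 183, and Apex1, an endonuclease of base excision repair, at 107 ± 12.4, against 127 (SD, n = 3 each). Gadd45g, a stress gene linked to demethylation, was marked in library 2 alone in the authors' deposited tables, as no other of the 18 was, and had 7.33, 36.6 and 27.6 FPKM, against 11.6. It lies outside the naming rule and was chosen after its values were seen.

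Of 26 partners and regulators of the methylation machinery 25 could be called, of which Zfp57 and Zscan4c rose and 0 fell, where 1.98% of all callable features rose. Zfp57, which keeps methylation at imprinted regions, had 36.2, 58.1 and 75.5 FPKM in knockdown libraries 1, 2 and 3, against 31.3 in the control. Zscan4c, a gene of the 2-cell embryo, had 0.518, 10.6 and 22.1 FPKM, against 0.239, and shares reads with near-identical copies, so its level is uncertain. Pcna, the replication clamp that binds Dnmt1, had 383, 407 and 385 FPKM, against 461, and was not called. Prdm14, which represses Dnmt3b and Dnmt3l in embryonic stem cells, was listed at 0, 0.778 and 1.32 FPKM in the knockdown libraries and at 0 in the control. The authors' deposited tables marked it in library 3 alone, and it was chosen after its values were seen, as was Pcna.

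Of 18 genes that supply methyl groups and one-carbon units Mthfd2, a mitochondrial folate enzyme, rose and 0 fell. It had 42.8, 77.6 and 80.7 FPKM in the knockdown libraries, against 40.6 in the control. All 18 could be called. The median log2 ratio of all measured members ran from -0.01 to 0.17 over the 3 libraries for the lists of readers, of demethylation and repair, of partners and of one-carbon metabolism, against -0.01, 0.03 and 0.01 over all tested features in libraries 1, 2 and 3. With library 2 or library 3 left out, 0 genes of these lists were called. This was fixed in advance, because none of them was marked in library 1.

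Of 19 germline genes that promoter methylation is known to silence in mouse somatic cells 13 could be called, of which 4 rose and 0 fell, where 1.98% of all callable features rose. Dazl, a germ cell RNA-binding protein, had 0.223, 3.78 and 5.30 FPKM in knockdown libraries 1, 2 and 3, against 0.0559 in the control. Mael, of the piRNA pathway, had 0.910, 5.34 and 6.69, against 0.685, and Ddx4 had 4.63, 5.05 and 8.56, against 1.53. Tuba3a, a testis tubulin, had 0.468, 3.31 and 7.49, against 0.235. As a list, the 19 had a median log2 ratio of 0.12, 0.62 and 1.24 in the 3 libraries. With library 2 or library 3 left out, 0 were called, which was fixed in advance because none was marked in library 1. Several of these genes are also active in naive pluripotent cells, and their methylation was not measured.

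**Figure D4:**
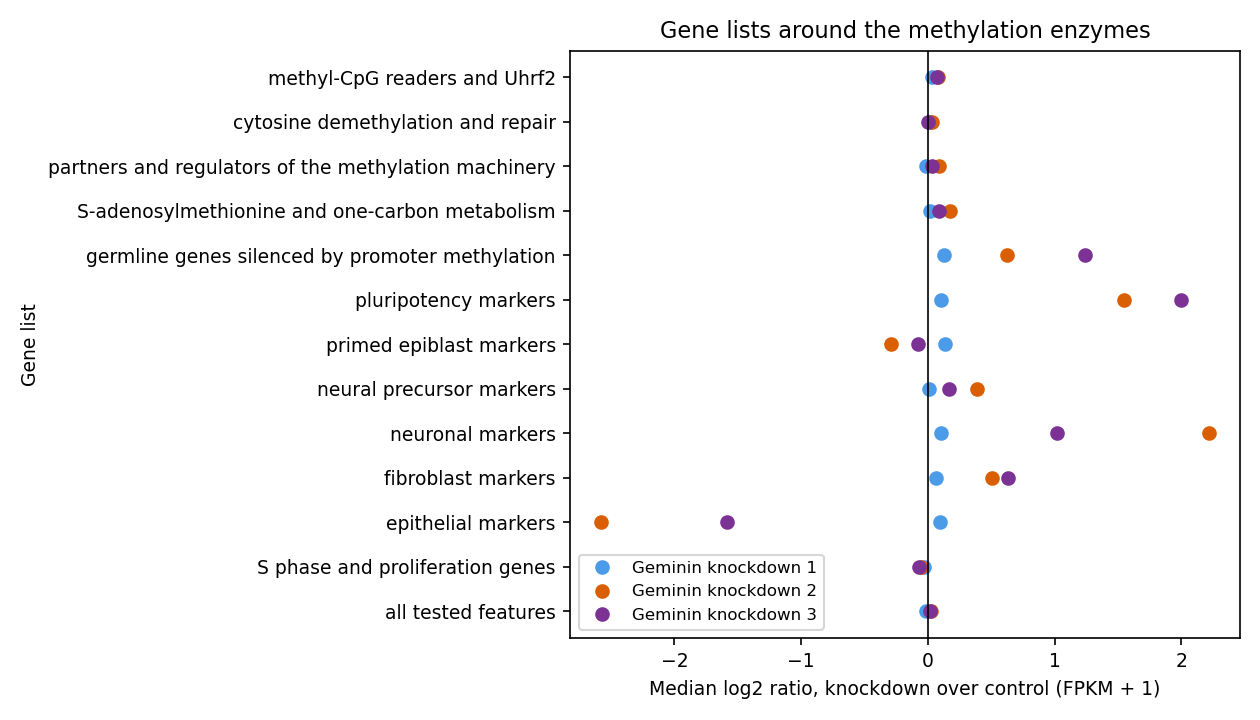
Median log2 ratio of knockdown over control, on the FPKM + 1 scale, of the measured members of each gene list, 1 point per knockdown library, with all tested features in the last row. The 4 lists of genes that read, remove, assist or supply methylation lie near 0 in all libraries. In libraries 2 and 3 the germline, pluripotency and neuronal lists reach medians of 0.62 to 2.22. The fibroblast list reaches 0.50 and 0.63 in these libraries, and the epithelial list -2.58 and -1.59.

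Markers of several cell states moved in libraries 2 and 3, as Dnmt3b and Tet2 did. Over all features the study's rule called 286 higher and 131 lower, and 272 and 120 without library 1. Movement in these libraries is thus general among called features and not particular to these genes. Counts of called markers stand beside 1.98% of callable features that rose and 0.905% that fell. Of the primed epiblast, neuronal and fibroblast lists 7 of 8, 11 of 12 and 10 of 12 genes could be called. In the other marker lists every gene could be. Of 14 pluripotency markers 10 rose and 0 fell, and their summed level was 108, 370 and 621 FPKM in knockdown libraries 1, 2 and 3, against 83.1 in the control. Zfp42, Dppa5a, Tdgf1 and Esrrb had the largest mean changes, with Zfp42 at 4.68, 33.0 and 58.0 FPKM, against 3.74. Of 8 primed epiblast markers, a state in which Dnmt3b is known to be abundant, Wnt8a, Pou3f1 and Cldn6 fell and 0 rose, with a summed level of 71.7, 32.7 and 47.8 FPKM, against 65.0. The list did not move as one, with median log2 ratios of 0.14, -0.29 and -0.08 in the 3 libraries. Of the 5 not called, Utf1, Lef1, Otx2 and Fgf5 had mean log2 ratios of 0.25 to 0.72 and Pim2 of -0.33, and these 5 were chosen after their values were seen. Utf1 had 10.5, 13.3 and 20.9 FPKM in the knockdown libraries, against 8.33. All 8 epithelial markers fell, with a summed level of 497, 53.8 and 160.3 FPKM, against 445. Cdh1, the epithelial cadherin, had 74.2, 6.63 and 18.8 FPKM, against 65.2, and Cldn4, Cldn7 and Esrp1 had the other largest mean changes.

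Of 12 neuronal markers 6 rose and 0 fell, with a summed level of 187, 631 and 321 FPKM in knockdown libraries 1, 2 and 3, against 174 in the control. Tubb3, a neuronal tubulin, had 24.0, 138 and 75.8 FPKM, against 22.2, and Nefm, Elavl4 and Nhlh1 had the other largest mean changes. Of those not called, Stmn2 went the other way, at 75.4, 44.6 and 40.5 FPKM, against 66.9, with a mark lower in library 3. Gap43 lay on both sides of the control, at 27.4, 36.5 and 21.5 FPKM, against 25.4. Dcx, Elavl3, Neurod1 and Isl1 had mean log2 ratios of 0.59 to 2.00. These uncalled genes were chosen after their values were seen. Of 11 neural precursor markers Ncam1 rose and 0 fell, with a summed level of 587, 773 and 627, against 590.2. Of 12 fibroblast markers, listed for the feeder layer of the stem cell cultures, Postn and Lox rose, with a summed level of 35.9, 56.0 and 83.1, against 33.8. The authors' deposited tables marked 5 of the 12 higher in library 3, where 3.33% of testable features were marked higher. Among the 5 was Col1a1, at 9.19, 13.3 and 23.1 FPKM, against 7.70. Lum was listed at 0 in library 3 and in the control, and at 0.408 and 0.355 FPKM in libraries 1 and 2. None of 16 genes of S phase and proliferation was called, with a summed level of 1869.7, 1842 and 1827, against 1887. The most abundant were Top2a at 264 ± 19.0 FPKM, against 233, and Mcm7 at 206 ± 19.9, against 239 (SD, n = 3 each). With library 2 or library 3 left out, 0 genes of any marker list were called. This was fixed in advance. Among these lists only Hes5 was marked in library 1, as lower, and it had no mark in the other libraries.

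Dnmt3l and the pluripotency markers were both highest in library 3, but in library 2 Dnmt3l was at 95.1% of the control while the summed markers were at 370 FPKM, against 83.1. The part of these markers in the levels of Dnmt3b, Dnmt3l and Tet2 was not tested. In such bulk samples fewer cells of a type and less RNA per cell cannot be told apart. Gmnn was at 24.0%, 58.4% and 24.7% of the control in libraries 1, 2 and 3, and in library 2 the authors' deposited table did not mark it (q = 0.0722, Cuffdiff). Its part in the differences between the libraries was not tested.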

How the data were processed

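The 4 libraries (3 knockdown, 1 control) were grouped by their titles. Per the submitters' processing notes, reads were aligned with TopHat to mm9 and quantified with Cufflinks and Cuffdiff. Their versions, and the gene annotation, were not given in the sources used here. The authors deposited 3 tables of FPKM, each of 1 knockdown library against the same control, so the comparisons share it. Beside these the deposited files list p-values, test statistics, marks at q up to 0.05, a score for the natural log of control over knockdown, and q-values, some above 1 and so handled as a score. Ratios were formed within a table, since control values differ slightly between tables.

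Calls follow the series' design: a deposited mark in at least 2 of 3 tables, in 1 direction. Callable features (14477) had a usable test in at least 2 tables. Approximate 95% intervals divide the log ratio by the test statistic to obtain a standard error. limma 3.58.1 (R 4.3.3, trended variance) was fitted to log2(FPKM + 1) for 12243 features with a mean of at least 1 FPKM, with Benjamini-Hochberg adjustment and a threshold of 0.05, and was tested on simulated data. It assumes that the lone control varies like the knockdown libraries. Each knockdown value was first placed on the scale of the mean control value by the ratio within its own table. Log2 changes on this scale understate those of low genes.

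The genes and lists were chosen with earlier results of these data known. In each list the called genes with the largest mean change, at most 4, were named, or the 2 most abundant where none was called, plus the 5 features nearest in pattern to each called gene. Sox1, Nes, Pou5f1, Lum, Col1a1 and Aire were named as checks outside this rule. Older symbols of Map2 and Tfcp2l1 were matched through RefSeq synonyms. Lists of marked features that repeat the full tables were not used. Alternatives were other pseudocounts, no filter on low values, another scaling, no trend, stricter and looser mark rules, and leaving out each knockdown library.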

Additional observations from a re-analysis of the deposited data

How the results depend on the processing

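Dnmt3b and Tet2 were called by the study's rule with all libraries and without library 1, so leaving out 1 library gave 0 to 1 member higher and 0 to 1 lower. This outcome was fixed in advance, because their marks lie in libraries 2 and 3 alone. With a mark required in all 3 tables, 0 members were higher and 0 lower. With an added change of at least 1 log2 unit on the FPKM + 1 scale, again 0 were higher and 0 lower. With a mark in at least 1 table, 2 were higher, Dnmt3l being added. Over all features the study's rule gave 286 higher and 131 lower. It gave 3 and 14 with marks in all 3 tables, 758 and 510 with a mark in at least 1, and 73 lower with the added log2 unit. Leaving out 1 library gave 12 to 272 higher and 22 to 120 lower.

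Limma called 3 features higher and 16 lower. With a pseudocount of 5, or with no trend, 1 was higher. With a pseudocount of 0.1, 4 were lower, and with no filter on low values 226 were lower. Leaving out 1 library gave 1 to 8 higher and 8 to 32 lower. None of the 64 alternative values for the 8 genes passed the threshold, with adjusted p from 0.375 to 1. Of these, 3 changed sign: Dnmt3a to -0.0036 without library 2, and Uhrf1 to -0.0032 without library 2 and -0.038 without library 3. Leaving out 1 library, Dnmt3a ran from -0.0036 to 0.17 and Uhrf1 from -0.038 to 0.084. With the median ratio set to 1, 2 genes lay above the control in every knockdown library and 2 below. Leaving out 1 library, 1 to 4 lay above and 1 to 2 below. Leaving out 1 library, the mean Dnmt3b share ran from 49.5% to 63.5%, against 56.9% with all knockdown libraries. The mean Tet1 share ran from 29.7% to 33.3%, against 31.3%. The causes were not tested. No paired analysis was possible because the groups share only the replicate number 1. The single control, which has no replicate, and the unknown depth limit every comparison.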
